A study of Mus musculus with 9 samples.

Results

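The 32 genes described here encode the proteins of homologous recombination, the Fanconi anaemia pathway and the replication checkpoint. They were chosen by name from knowledge of these pathways, and all 32 were found by Ensembl gene ID among the 49671 genes of the count table. A set of 20 members is known to be transcribed mainly in late G1 and S phase and is called cycling-linked here, and the other 12 are called other members. These classes came from background knowledge of cell-cycle transcription. The members and lists were chosen with earlier results of these data known. Their counts beside those of all genes, and the contrast of the classes, are therefore descriptions and not independent support. The RNA came from splenic T cells enriched on CD3+ columns from female F1 mice, whose mothers were C57BL/6 heterozygous for an Xist deletion and whose fathers were castaneus, so that X inactivation is skewed in all 3 groups. Unstimulated cells went into TRIzol straight after enrichment. Stimulated cells were cultured for 48 hours on plate-bound anti-CD3 at 1 µg/ml with soluble anti-CD28 at 10 µg/ml, and the inhibitor group had the same culture with 2.5 µM IMD-0354, an inhibitor of IKK-beta in the NF-kB pathway. Each group held 3 libraries. The labels name no vehicle and no cells cultured without stimulation, so culture and stimulation cannot be told apart. They also do not say whether the replicates are separate animals, and p-values then measure only the spread between these libraries.

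Homologous recombination repairs double-strand breaks and broken replication forks by copying the sister chromatid. Nucleases resect the break, BRCA2 and its partners prepare the single-stranded end for strand exchange, and helicases and nucleases take the joined molecules apart. The Fanconi pathway unhooks crosslinks between the strands and hands the break to recombination. The checkpoint kinases ATR and ATM sense stalled forks and breaks and act through CHK1 and CHK2. T cells divide rapidly after their receptor is engaged, and many of these genes are known targets of the E2F factors that drive entry into S phase.

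Promoter windows from RefSeq (build GRCm38.p6, 250 bases before to 50 after the transcript start) were matched by symbol for 27 of the 32 members. Of these members 4 have 2 windows, for 2 transcript starts, as 15.4% of all genes have more than 1 window. A gene was counted once if any of its windows held the letters. A window need not lie at the outermost start: that of Timeless begins at chr10:128237816, inside the gene (chr10:128232065-128252941). The windows were searched on both strands for the E2F letters TTTCCCGC, TTTCGCGC, TTTGCCGC and TTTGGCGC. The letters were found for 5 of 16 cycling-linked members (31.2%) and for 3 of 11 other members (27.3%), against 704 of 27025 genes in all (2.61%) and 575 of 17492 protein-coding genes (3.29%). These 8 members held 9 matches, since both windows of Rad51c held 1, and each match is printed with up to 10 bases on either side, in capitals, 5′ to 3′ along the gene. A match is a description of the letters and not a bound site.
Bard1, chr1:71103164-71103191, minus strand: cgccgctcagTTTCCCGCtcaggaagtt
Fancg, chr4:43010336-43010363, minus strand: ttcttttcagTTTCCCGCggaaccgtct
Clspn, chr4:126556991-126557018, plus strand: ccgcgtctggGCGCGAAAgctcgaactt
Chek2, chr5:110839821-110839848, plus strand: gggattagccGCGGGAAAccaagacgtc
Brca2, chr5:150522443-150522470, plus strand: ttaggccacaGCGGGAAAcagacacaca
Topbp1, chr9:103305188-103305215, plus strand: cgctcggttgGCGCGAAAgtcggttccc
Rad51c, chr11:87404478-87404505, minus strand: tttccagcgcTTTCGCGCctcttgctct
Rad51c, chr11:87404942-87404969, minus strand: ccccgcgaggGCGGGAAAagcaaggggt
Msh6, chr17:87975055-87975082, plus strand: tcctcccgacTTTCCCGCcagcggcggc
The matches of Clspn and Msh6 and the first of Rad51c lie after the transcript start of their window. The second of Rad51c runs across the start, and the rest lie before it. CCAAT was found for 9 of 16 cycling-linked members (56.2%), 6 of 11 other members (54.5%) and 41.1% of all genes. TTTGAA, the letters of the cell-cycle homology region, was found for 2 of 16 (12.5%), 1 of 11 (9.09%) and 20.2%. The E2F letters were the only ones of the 3 kinds in which either class held a share several times that of all genes, and they were about as frequent in the cycling-linked members as in the other members.

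The whole windows (the first listed, where a member has 2) of the 3 cycling-linked members and of the other member with the largest rise under stimulation among those with a window are printed next, with CCAAT and TTTGAA matches on either strand in capitals. The only TTTGAA match among the other members lies in the second window of Rad51b, which starts 69 bases further along the gene and is not printed. None of these 4 windows held the E2F letters searched, which says only that those letters are not in these bases.
Eme1, chr11:94653694-94653993, minus strand: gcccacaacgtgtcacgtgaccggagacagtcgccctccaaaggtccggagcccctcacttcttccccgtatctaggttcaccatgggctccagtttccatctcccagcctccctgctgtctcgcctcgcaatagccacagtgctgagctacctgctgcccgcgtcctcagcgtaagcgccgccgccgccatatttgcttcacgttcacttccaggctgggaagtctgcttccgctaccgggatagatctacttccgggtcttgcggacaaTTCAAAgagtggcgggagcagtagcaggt
Chek1, chr9:36726609-36726908, minus strand: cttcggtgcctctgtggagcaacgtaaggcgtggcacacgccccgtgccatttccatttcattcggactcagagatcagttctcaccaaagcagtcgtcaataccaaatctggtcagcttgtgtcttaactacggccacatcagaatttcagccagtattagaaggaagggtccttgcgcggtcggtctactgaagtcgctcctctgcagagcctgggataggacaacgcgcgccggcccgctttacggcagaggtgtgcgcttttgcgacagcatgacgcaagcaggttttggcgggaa
Brip1, chr11:86201144-86201443, minus strand: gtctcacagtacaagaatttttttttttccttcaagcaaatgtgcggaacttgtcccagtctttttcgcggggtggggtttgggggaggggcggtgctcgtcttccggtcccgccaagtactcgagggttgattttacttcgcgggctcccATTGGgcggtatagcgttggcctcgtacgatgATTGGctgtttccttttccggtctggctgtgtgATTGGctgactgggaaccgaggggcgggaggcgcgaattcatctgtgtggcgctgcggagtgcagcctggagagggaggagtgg
Rad51b, chr12:79297032-79297331, plus strand: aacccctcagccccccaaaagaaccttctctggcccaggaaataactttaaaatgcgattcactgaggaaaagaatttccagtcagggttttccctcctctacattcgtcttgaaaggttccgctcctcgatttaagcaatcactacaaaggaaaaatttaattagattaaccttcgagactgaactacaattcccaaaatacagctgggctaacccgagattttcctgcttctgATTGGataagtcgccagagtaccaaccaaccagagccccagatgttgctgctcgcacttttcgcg

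Total counts ran from 34009988 to 56221174 per library, and levels are given as CPM, read counts per library total scaled by the trimmed mean of M-values. Together the members took 0.0694%, 0.111% and 0.0721% of all counts in the unstimulated libraries, 0.233%, 0.231% and 0.229% in the stimulated libraries, and 0.135%, 0.114% and 0.135% with the inhibitor. The T cell markers summed to 1967 to 3024 CPM in unstimulated cells and to 2382 to 2585 CPM in the cultured groups, so the labelled cell type's markers were present in all 9 libraries. Unstimulated cells also held B cell markers (2058, 2930.2 and 1003 CPM) and myeloid and dendritic markers (1853, 3029 and 1177 CPM), which summed to 81.6 to 162 CPM and 28.7 to 90.3 CPM in the cultured groups. Natural killer cell markers summed to 411 to 499 CPM in unstimulated cells, 116 to 226 CPM in stimulated cells and 33.4 to 43.1 CPM with the inhibitor, and markers of germinal centre B and plasma cells to 344 to 688, 1163 to 1378 and 1064 to 1198 CPM in the same order. These last sums do not describe their list as a whole. Of its 9 markers 3 were higher and 4 lower with stimulation (edgeR adjusted p under 0.05, median log2 fold change -0.04). In inhibitor against unstimulated cells 4 were higher and 4 lower, with a median of -2.92.

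Unstimulated library 2 stood apart from libraries 1 and 3 of its group. All 20 cycling-linked members were higher in it than in the other two, by a median ratio of 2.78 to the mean of libraries 1 and 3, and 15 of 20 (75%) were over 2 times as high. Of the other members, 8 of 12 were highest in library 2, with a median ratio of 1.17. Over all genes tested the median ratio was 1.01, 39.1% were highest in library 2 and 9.03% exceeded 2. The ratio was 5.88 for Rad51b, 5.14 for Rad54l and 4.83 for Brca1, against 1.09 for Msh6, 1.02 for Fancm and 0.941 for Atm. In the same library 12 proliferation markers summed to 827 CPM, against 217 and 125 CPM in libraries 1 and 3, and B cell and myeloid markers were also highest there. The erythroid markers, a list that also holds the transferrin receptor gene Tfrc of dividing cells, summed to 685, 1431 and 134 CPM in unstimulated libraries 1, 2 and 3. Slc4a1, the red cell anion exchanger, stood at 41.3, 303 and 3.48 CPM in these libraries and at 0 to 1.57 CPM in the cultured groups. The part of these other cells in the members' unstimulated levels was not tested, and a bulk library cannot tell fewer cells of a type from less RNA per cell. Without library 2 the fold change against unstimulated cells grew by over 1.5 times for 13 members, Rad51b and 12 cycling-linked ones, in stimulated and in inhibitor cells alike. Leaving out any other library moved no member's fold by as much. For these 13 the rise is given with and without library 2. Within the inhibitor group library 3 was the highest for all 20 cycling-linked members, at a median of 1.43 times the mean of libraries 1 and 2, and Mki67, a marker of dividing cells, stood at 87.4, 79.6 and 185 CPM in inhibitor libraries 1, 2 and 3.

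**Figure D1:**
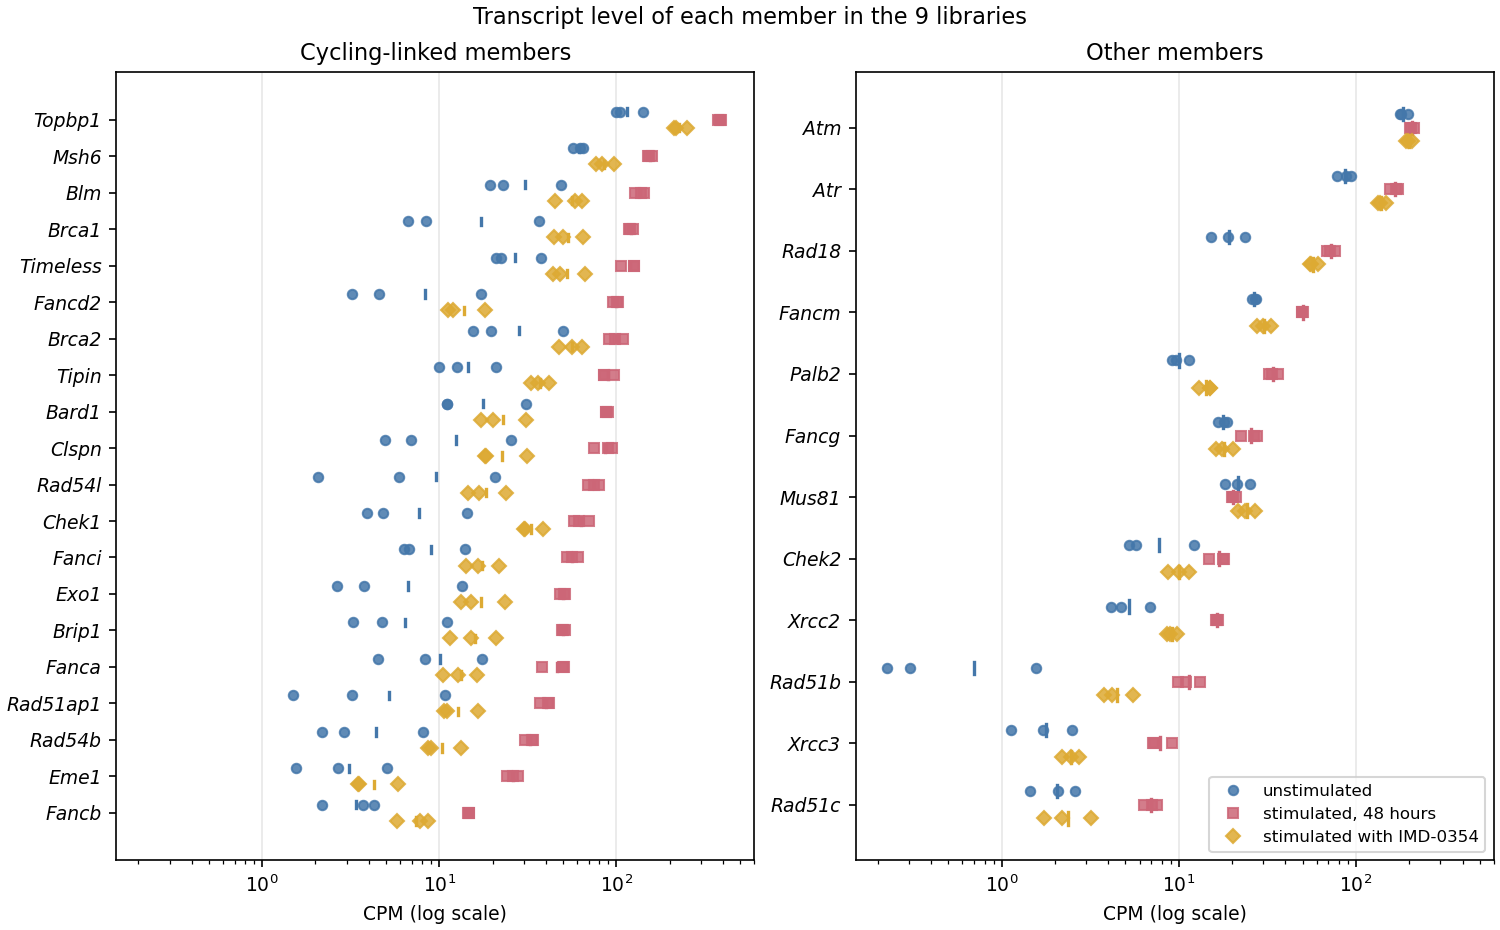
Level of each of the 32 members in CPM (log axis) in 3 unstimulated (circles), 3 stimulated (squares) and 3 inhibitor libraries (diamonds), with the group mean as a vertical tick, cycling-linked members on the left and other members on the right, each sorted by the stimulated mean. Stimulated libraries stand to the right of all unstimulated libraries for every member except Mus81, and the unstimulated circles spread widely for most cycling-linked members with library 2 the highest.

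Stimulation raised nearly the whole set. In the comparison of stimulated with unstimulated cells, 30 of 32 members rose at an adjusted p under 0.05 (edgeR quasi-likelihood test, Benjamini-Hochberg adjustment over 18374 genes, the threshold for every call), and none fell. Of all genes tested 32% rose and 34% fell. The count of members that fell was also 0 at an unadjusted p under 0.05, with DESeq2 and with limma voom. The median log2 fold change was 2.16 over the members and -0.05 over all genes. Of the members 27 rose at least 2-fold, as did 3587 of all 18374 genes tested. For 31 members every stimulated library lay above every unstimulated one, a pattern found for 35.4% of all genes tested.

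All 20 cycling-linked members rose, with a median log2 fold change of 2.72 and a range from 1.33 for Msh6 to 3.58 for Fancd2. Of the other members 10 of 12 rose, with a median of 1.38 and a range from -0.08 for Mus81 to 4.03 for Rad51b. Without unstimulated library 2 the medians were 3.37 and 1.70, and the same comparison still called 30 members or more whichever library was left out. The difference between the classes is a description of these genes and was not tested. Proliferation markers rose in 12 of 12 cases with a median of 3.34, and genes of replication licensing and the fork in 16 of 16 with a median of 2.07, so the cycling-linked median lay between these lists.

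The inhibitor lowered most members in stimulated cells. Against stimulated cells without it, 24 of 32 members fell and none rose, where 22.8% of all genes tested fell and 21.7% rose. No member rose at an unadjusted p under 0.05, with DESeq2 or with limma voom. The median log2 fold change was -1.26 over the members and 0.03 over all genes. Of the members 17 fell at least 2-fold, as did 1989 of all 18374 genes tested. For 30 members every inhibitor library lay under every stimulated library, a pattern found for 29.5% of all genes tested. The exceptions were Atm, whose libraries overlapped, and Mus81, whose inhibitor libraries all lay above.

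By class, 17 of 20 cycling-linked members fell, with a median of -1.59, and 7 of 12 other members, with a median of -0.74. The cycling-linked members that missed the threshold were Brca1, Chek1 and Brca2, with log2 fold changes of -1.18, -0.93 and -0.83 and edgeR adjusted p-values of 0.0871, 0.0763 and 0.0831. Their inhibitor and stimulated libraries did not overlap. The spread that entered these tests was shared with the unstimulated group, in which library 2 was high. With that library left out all 20 cycling-linked members fell, and the edgeR adjusted p was 9.77e-05 for Brca1, 0.000305 for Chek1 and 0.000556 for Brca2. Among the other members Rad51b, Chek2 and Rad18 were then called lower as well, which made 30 of 32. Of all genes 4419 of 19139 tested were lower in that fit, against 4192 of 18374 in the main fit. Without unstimulated library 3 Brca1, Chek1, Brca2, Rad51b and Chek2 were also called (adjusted p = 0.0326 to 0.048), and without unstimulated library 1 Rad51b, Chek2 and Rad18 (0.0309 to 0.0419). In the other direction, Rad51ap1, Exo1 and Rad54l lost their calls when single cultured libraries were left out: adjusted p reached 0.0943 for Rad51ap1, 0.0963 for Exo1 and 0.0751 for Rad54l without inhibitor library 2, and 0.06, 0.0679 and 0.0506 without stimulated library 3. Rad51ap1 and Exo1 also lost theirs without stimulated library 1 (0.0699 and 0.0653) or 2 (0.0622 and 0.053), and all 3 without inhibitor library 1 (0.082, 0.0796 and 0.0617). A fit chosen after seeing the data used the 6 stimulated and inhibitor libraries with the replicate block, which pairs libraries of the same number. It also called 20 of 20 and 10 of 12. Its edgeR adjusted p was 0.000468 for Brca1, 0.00147 for Chek1, 0.00144 for Brca2, 0.00044 for Rad51b, 0.00134 for Chek2 and 0.0139 for Rad18. The same 6 libraries without the block also gave 20 and 10, while the block on all 9 libraries gave 17 and 7. How many of all genes were called in these fits is not reported here.

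**Figure D2:**
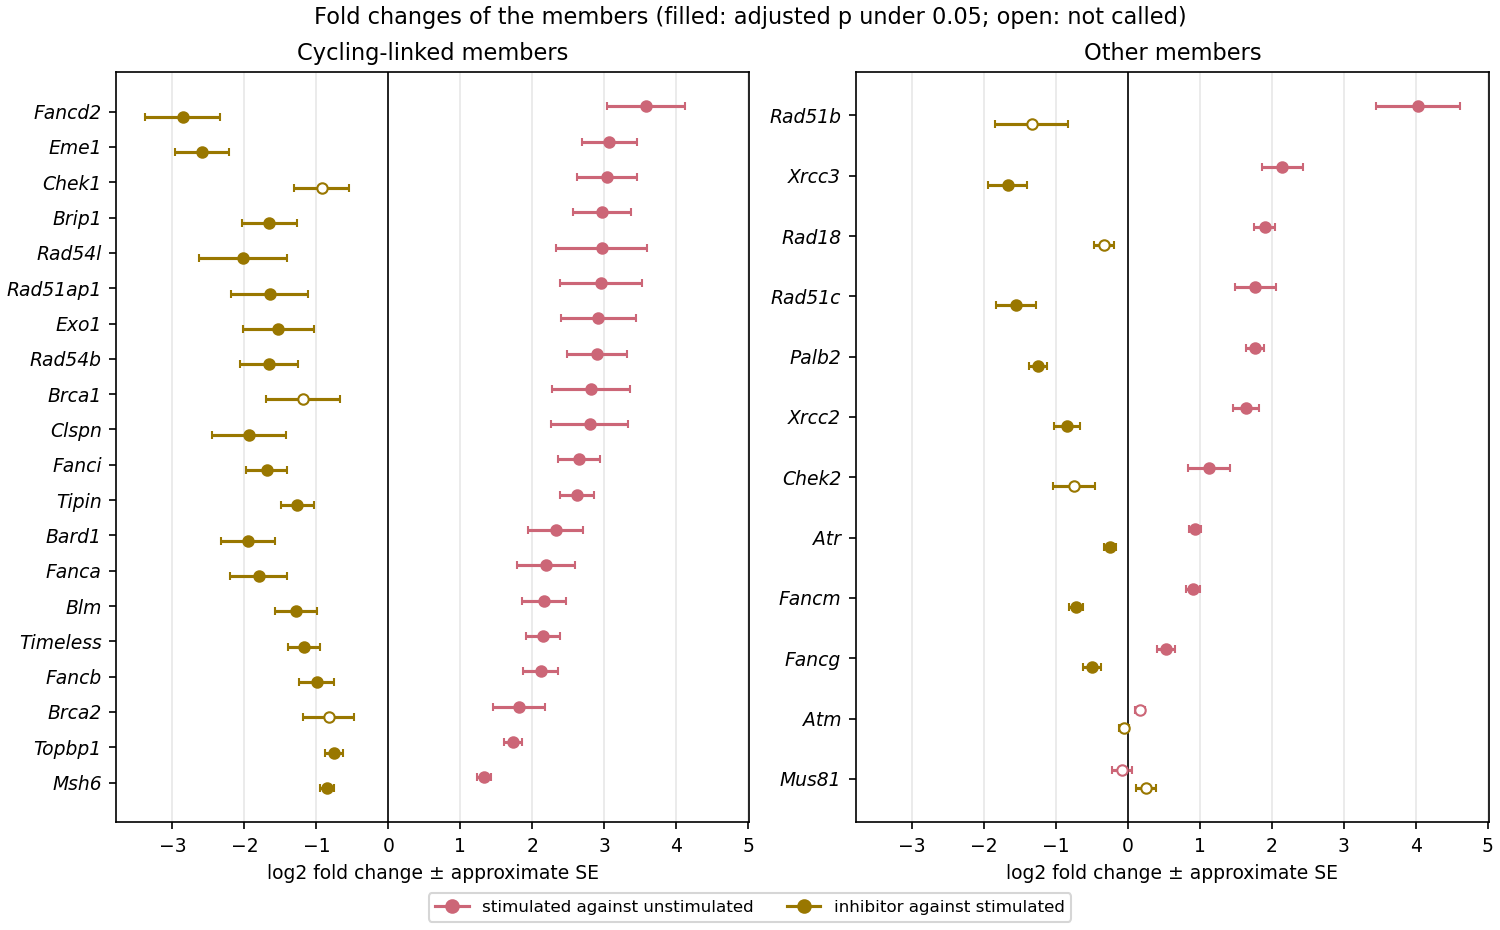
Log2 fold change of each member with its approximate standard error (bars) for stimulated against unstimulated cells and for inhibitor against stimulated cells, both of which use the 3 stimulated libraries, with filled points for adjusted p under 0.05 and open points for members not called. Points of the first comparison lie to the right of 0 and those of the second to the left for every member except Mus81. Mus81 lies at -0.08 and 0.25, and Atm, not called in either, at 0.16 and -0.06.

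With the inhibitor 18 of 32 members still stood above unstimulated cells and none below, where 26.3% of all genes tested were higher and 26.1% lower, and all 32 fitted log2 fold changes were above 0, so that the count lower was also 0 at an unadjusted p under 0.05. DESeq2 called 16 higher and limma voom 21, and neither called any lower. The median was 0.87 over the members, 0.97 over the cycling-linked members (13 of 20 higher) and 0.42 over the other members (5 of 12 higher). Inhibitor libraries lay above all unstimulated libraries for 16 members, against 29.3% of all genes tested. This comparison of the members depended on single libraries, while its count of all genes called higher ran from 4103 to 4797 (4826 in the main fit). It called 27 members higher, among them 20 of 20 cycling-linked members, without unstimulated library 2. The 9 that came past the threshold were Rad51ap1, Rad54l, Fanca, Fancd2, Bard1, Clspn, Eme1, Xrcc3 and Chek2, with adjusted p from 0.000105 to 0.0269. It called 11 members, among them 6 of 20, without unstimulated library 1 or without inhibitor library 3. Without unstimulated library 3 it called 7 of 20 cycling-linked members. Brca2 lost its call without any 1 library other than unstimulated library 2 (adjusted p = 0.0545 to 0.135), and Exo1 without any other than unstimulated library 2 or inhibitor library 2 (0.0522 to 0.134). Brca1, Rad54b, Fanci, Brip1 and Blm lost theirs without unstimulated library 1 and without inhibitor library 3 (0.0611 to 0.106). All of these 5 but Brip1 also lost theirs without unstimulated library 3 (0.0526 to 0.0847), and Blm without inhibitor library 1 (0.0595). Rad51b, Chek1 and Brca1 had the largest fold changes, with Brca1 at 1.63 ± 0.52 (edgeR adjusted p = 0.0239, and 0.0785 without unstimulated library 1). Without unstimulated library 2 the values were 4.05 for Rad51b, 2.92 for Chek1 and 2.82 for Brca1. Fancg, Atm and Mus81 had the smallest, with Atm at 0.11 ± 0.07 and Mus81 at 0.17 ± 0.14 (edgeR adjusted p = 0.226 and 0.335).

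The share of the rise that was present with the inhibitor was computed for the 30 risen members as the inhibitor mean minus the unstimulated mean, over the stimulated mean minus the unstimulated mean. Its median was 22.9% over 20 cycling-linked members (5.21% to 45.9%) and 21.4% over 10 other members (3.11% to 72.2%), and without unstimulated library 2 it was 27.5% and 29%. Rad18 kept 72.2% (68.2% to 79.1% over the inhibitor libraries) and Atr 66.4% (59.4% to 76.8%). Fancd2 kept 5.92% (3.13% to 10.7%) and Eme1 5.21% (1.63% to 12.1%). The low shares depended on single libraries: without unstimulated library 2 they were 10.3% for Fancd2 and 9.15% for Eme1, and the lowest values on leaving out 1 library were 3.22% for Fancd2 (without unstimulated library 3) and 1.76% for Eme1 (without inhibitor library 3). For Rad18 and Atr the same values ran from 68.7% to 74.9% and from 61.2% to 69.9%. The ranges over the inhibitor libraries of Rad18 and Atr do not meet those of Fancd2 and Eme1, while those of most members between them overlap. Fancg, at 3.11%, had a range from -18% to 31% on a rise of 0.53 on the log2 scale, and was 8.52% without unstimulated library 2 and -10.9% to 13.7% on leaving out each library. In the same libraries the proliferation markers summed to 3131, 3065 and 3021 CPM with stimulation and to 293, 286 and 564 CPM with the inhibitor, and fell with a median log2 fold change of -3.26 in 12 of 12 cases. The licensing and fork genes fell in 15 of 16 with a median of -1.09, and in inhibitor against unstimulated cells 14 of these 16 were higher, while of the 12 proliferation markers 2 were lower and 10 were not called. Whether the members' changes exceed those in the number of dividing cells was not tested.

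**Figure D3:**
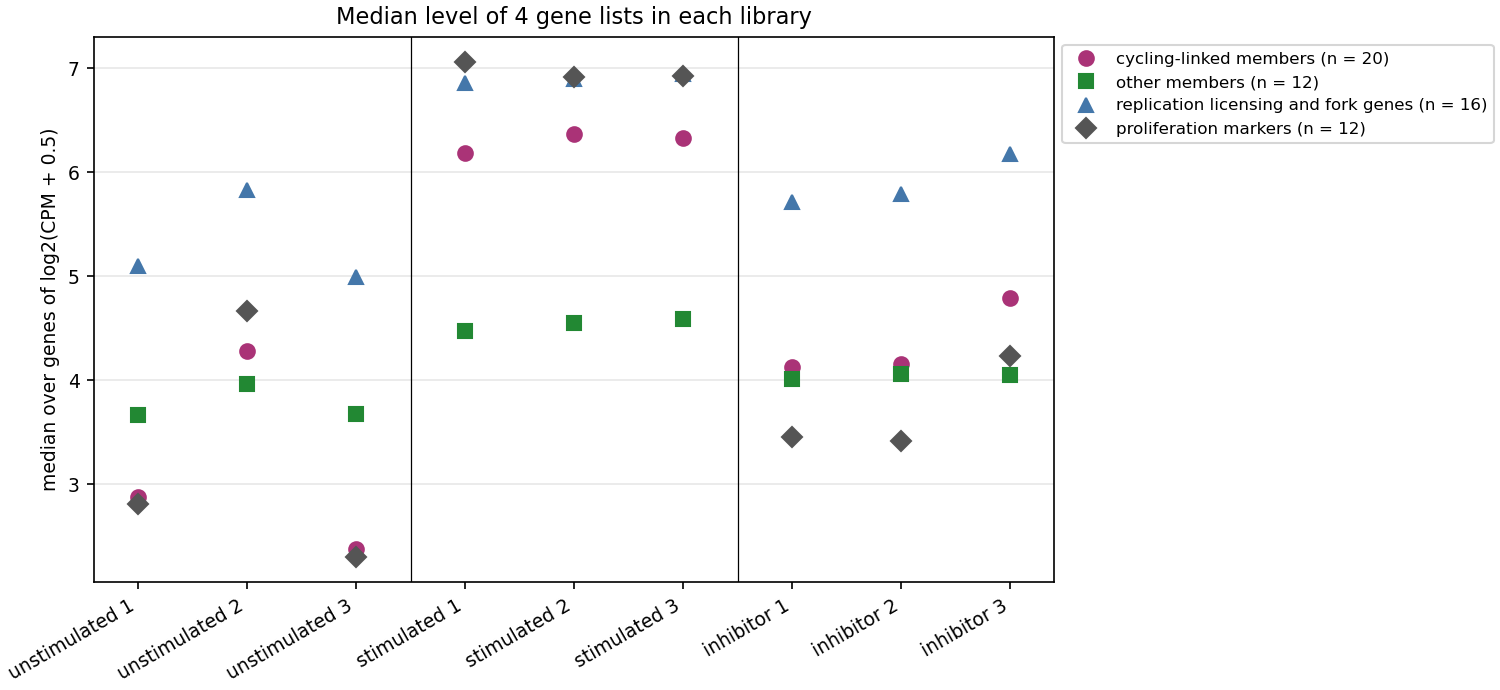
Median over the genes of a list of log2(CPM + 0.5) in each of the 9 libraries for cycling-linked members, other members, replication licensing and fork genes and proliferation markers. Unstimulated library 2 is the highest of its group for all 4 lists, the other members move least between the groups, and the proliferation markers lie under the cycling-linked members with the inhibitor but above them in the stimulated libraries.

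The BRCA complexes and their mediators rose in 5 of 5 cases, with a median log2 fold change of 2.32. Brca1 (chr11:101488764-101551955, GENCODE M21 on GRCm38), the ubiquitin ligase subunit that promotes resection, stood at 8.38, 36.4 and 6.69 CPM in unstimulated libraries 1, 2 and 3, at 119, 125 and 118 CPM in the stimulated libraries and at 50.2, 44.2 and 65.1 CPM with the inhibitor. The 3 groups did not overlap, library 2 came nearest to the inhibitor libraries, and the rise was 2.81 ± 0.54 on the log2 scale (approximate standard error, edgeR adjusted p = 0.0011) and 4.0 without library 2. Bard1 (chr1:71027498-71103146), the partner that BRCA1 needs as a ligase, read 11.1, 30.8 and 11 CPM, 87.9, 87.5 and 89.5 CPM and 17.3, 20.1 and 31 CPM in the same order of groups. Its rise was 2.32 ± 0.38, and 3.00 without unstimulated library 2. Its inhibitor libraries overlapped the unstimulated ones, unlike those of Brca1, and it fell by 1.95 (edgeR adjusted p = 0.00216). The share of the rise present with the inhibitor was 7.27% for Bard1 and 34.8% for Brca1, with ranges over the inhibitor libraries of -0.456% to 18.9% and 26.1% to 46.3%. Without unstimulated library 2 these shares were 15.2% and 40.3%, and without inhibitor library 3 they were 1.48% and 29%. Against unstimulated cells Bard1 was not called, at 0.37 ± 0.37 (edgeR adjusted p = 0.43), but was called without unstimulated library 2, at 1.04 (adjusted p = 0.00247). Brca2 (chr5:150522630-150570329), which acts on resected single-stranded DNA ahead of strand exchange, was at 19.5, 49.8 and 15.5 CPM unstimulated, 109, 98.6 and 90.7 CPM stimulated and 56.3, 47.6 and 63.7 CPM with the inhibitor. Unstimulated library 2 lay within the range of the inhibitor libraries for Brca2, and the group mean was 55.9 ± 8.05 CPM with the inhibitor and 28.3 ± 18.8 CPM unstimulated (SD, n = 3). The rise of Brca2 was 1.81 ± 0.36, and 2.50 without library 2. Palb2 (chr7:122107262-122132985), which bridges BRCA1 and BRCA2, gave 9.68, 11.4 and 9.14 CPM, 36.5, 33.5 and 32.3 CPM and 15, 13 and 14.9 CPM. The unstimulated libraries of Palb2 lay close together, with a rise of 1.76 ± 0.12 and a change of -1.25 ± 0.12 under the inhibitor (edgeR adjusted p = 1.13e-06 and 3.49e-05). Brip1 (chr11:86058138-86201193), a helicase that binds BRCA1, averaged 6.39 ± 4.18, 50 ± 1.03 and 15.9 ± 4.77 CPM (SD, n = 3) in the 3 groups and fell by 1.65 with the inhibitor, after a rise of 2.97 ± 0.40 that was 3.64 without unstimulated library 2.

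The strand exchange genes, whose products help a resected end to invade the sister chromatid, rose in 7 of 7 cases with a median of 2.90. Rad51b (chr12:79297282-79814690) had the largest fold change of all members, from 0.225, 1.55 and 0.304 CPM unstimulated to 9.95, 10.9 and 13.2 CPM stimulated, and stood at 4.19, 3.77 and 5.5 CPM with the inhibitor. Its unstimulated level rested on as few as 9 counts in a library. The rise was 4.03 ± 0.59 (edgeR adjusted p = 0.000164) and 5.39 without unstimulated library 2, and the inhibitor libraries lay between the other groups without overlap. Against unstimulated cells it was also the member with the largest log2 fold change under the inhibitor, 2.69 ± 0.57 (edgeR adjusted p = 0.00263), which was 4.05 without unstimulated library 2. Rad51c (chr11:87376645-87404954), whose product binds that of Rad51b in 1 complex, read 1.45, 2.09 and 2.59 CPM, 7.54, 7.07 and 6.33 CPM and 1.73, 2.18 and 3.18 CPM. For Rad51c the inhibitor libraries overlapped the unstimulated ones, and it fell by 1.56 (edgeR adjusted p = 0.00146). Xrcc2 and Xrcc3, which also act in strand exchange, averaged 5.25 and 1.78 CPM unstimulated, 16.4 and 7.86 CPM stimulated, and 9.09 and 2.46 CPM with the inhibitor, and both were called in the first 2 comparisons. Rad54l (chr4:116094264-116123690), a motor protein that drives strand invasion, stood at 5.96, 20.7 and 2.07 CPM, 68.8, 79.3 and 75 CPM and 16.7, 14.5 and 23.8 CPM. Its unstimulated library 2 exceeded 2 of the 3 inhibitor libraries, and the inhibitor lowered it by 2.02 ± 0.61 (edgeR adjusted p = 0.0214). Its rise was 2.96 ± 0.63, and 4.23 without unstimulated library 2. Against unstimulated cells it was not called in the inhibitor group, at 0.94 (edgeR adjusted p = 0.217), and without unstimulated library 2 it was 2.21 (adjusted p = 0.000811). Its exons overlap those of Lrrc41 on the opposite strand over 15.4% of their length. Rad54b, a related motor protein, averaged 4.38 ± 3.2, 32.6 ± 1.99 and 10.3 ± 2.63 CPM (SD, n = 3) and rose by 2.90 ± 0.42, or 3.67 without unstimulated library 2. It shares 35.8% of its exon length with Fsbp on the same strand, where reads of the 2 genes cannot be told apart by strand. Rad51ap1, which helps DNA ends to pair, averaged 5.18 ± 4.96, 40.1 ± 2.52 and 12.7 ± 3.37 CPM (SD, n = 3) and fell by 1.65 under the inhibitor. Its rise was 2.95 ± 0.57, and 4.10 without unstimulated library 2.

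The Fanconi genes rose in 6 of 6 cases (median 2.15) and fell in 6 of 6 with the inhibitor (median -1.34). Fancd2 (chr6:113531682-113597017), which is ubiquitinated at crosslinks, had the largest fold change of the cycling-linked members in both comparisons. It stood at 4.54, 17.2 and 3.22 CPM unstimulated, 101, 96.3 and 102 CPM stimulated and 11.2, 11.9 and 18.1 CPM with the inhibitor. The rise was 3.58 ± 0.54 and the change under the inhibitor -2.86 ± 0.52 (edgeR adjusted p = 0.000217 and 0.00158), and unstimulated library 2 lay among the inhibitor libraries. Without that library the rise was 4.69, and the inhibitor group, not called above unstimulated cells at 0.73 ± 0.50 (edgeR adjusted p = 0.255), was called at 1.83 (adjusted p = 0.000105). Fanci (chr7:79391929-79450264), its partner in the ID complex, gave 6.76, 13.9 and 6.36 CPM, 52.8, 56.3 and 60.3 CPM and 14.1, 16.5 and 21.8 CPM. The inhibitor libraries of Fanci lay just above all unstimulated ones, and its share of the rise kept, 17.8%, was above the 5.92% of Fancd2, with library ranges that met only near 10.7%, and without unstimulated library 2 the shares were 21.8% and 10.3%. Its exons overlap those of Polg on the opposite strand over 16% of their length. Fanca (chr8:123268300-123318576), a core complex subunit, read 8.33, 17.5 and 4.5 CPM, 38, 50.3 and 50.2 CPM and 10.5, 12.8 and 16.4 CPM, and unstimulated library 2 lay above all 3 inhibitor libraries. Its rise was 2.19 ± 0.40, and 2.85 without that library. Its exons overlap those of Zfp276 on the opposite strand over 10.5% of their length. Fancb, the core subunit encoded on the X chromosome, averaged 3.39 ± 1.09, 14.7 ± 0.0988 and 7.37 ± 1.45 CPM (SD, n = 3), with no overlap between the groups. Fancm, the helicase that anchors the core complex to DNA, and Fancg, another core subunit, belong to the other members and moved less. Fancm stood at 25.9, 27 and 27.1 CPM, 49.9, 50.1 and 49.9 CPM and 29.9, 27.5 and 33.3 CPM. Its stimulated libraries agreed within 1 CPM and lay well above the rest, and it rose by 0.91 ± 0.10 (edgeR adjusted p = 1.66e-05). Fancg gave 17.9, 18.6 and 16.6 CPM, 22.4, 26.6 and 27.5 CPM and 16.3, 20.1 and 17.4 CPM, with a rise of 0.53 ± 0.12 (edgeR adjusted p = 0.00381), the smallest among the members called. Against unstimulated cells the inhibitor group of Fancg differed by 0.02 ± 0.12 (edgeR adjusted p = 0.904), the smallest difference of any member.

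Of the nucleases and helicases of resection, dissolution and resolution 3 of 4 rose and the same 3 fell with the inhibitor. Eme1 (chr11:94644996-94653964), the regulatory partner of the structure-selective nuclease MUS81, stood at 2.67, 5.1 and 1.56 CPM unstimulated, 24.2, 27.9 and 25.9 CPM stimulated and 3.54, 3.48 and 5.88 CPM with the inhibitor. It rose by 3.07 ± 0.38 and changed by -2.59 ± 0.37 under the inhibitor (edgeR adjusted p = 5.7e-05 and 0.000388), and the inhibitor and unstimulated libraries overlapped. Mus81 (chr19:5482345-5488402), the catalytic subunit of that nuclease, read 18.1, 21.3 and 25.1 CPM, 21, 19.8 and 20.1 CPM and 21.7, 27 and 23.6 CPM. Its log2 fold change was -0.08 ± 0.14 under stimulation and 0.25 ± 0.14 under the inhibitor (edgeR adjusted p = 0.609 and 0.166), and the stimulated libraries lay within the unstimulated range. The pair therefore differed in these libraries: the partner moved by more than 3 log2 units with stimulation and the catalytic subunit by less than its standard error. Per kilobase of exon the stimulated means were 9.43 CPM for Eme1 and 5.69 CPM for Mus81, and the unstimulated means were 1.13 and 6.03 CPM per kilobase. The exon length merges the exons of every annotated transcript of a gene, so such values depend on that choice. Blm (chr7:80454733-80535119), the helicase that dissolves double Holliday junctions, gave 23, 49 and 19.3 CPM, 142, 138 and 128 CPM and 58.1, 45.2 and 64.2 CPM, and was lower with the inhibitor by 1.29 (edgeR adjusted p = 0.00564). Exo1, the exonuclease of long-range resection, averaged 6.64 ± 5.96, 50 ± 1.89 and 17.3 ± 5.45 CPM (SD, n = 3) and rose by 2.91 ± 0.52, or 3.97 without unstimulated library 2.

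Among the checkpoint kinases and their activator 4 of 5 rose, with a median of 1.13, and 2 of 5 fell with the inhibitor. Chek1 (chr9:36708482-36727065), the effector kinase downstream of ATR, stood at 4.84, 14.3 and 3.93 CPM unstimulated, 69.9, 61.9 and 57.6 CPM stimulated and 30.4, 30.3 and 38.8 CPM with the inhibitor. The 3 groups did not overlap, and the rise was 3.04 ± 0.42, or 3.85 without unstimulated library 2. The share of the rise present with the inhibitor was 45.9%, the largest among the cycling-linked members. Against unstimulated cells it was higher by 2.11 ± 0.41 with the inhibitor (edgeR adjusted p = 0.00154). Chek2 (chr5:110839979-110874145), the effector of ATM, read 5.24, 12.2 and 5.73 CPM, 14.8, 17.9 and 18.1 CPM and 8.66, 10.1 and 11.4 CPM, where unstimulated library 2 lay above all inhibitor libraries. It rose by 1.13 ± 0.29 (edgeR adjusted p = 0.00632). Atm (chr9:53439149-53536740), the kinase activated by breaks, changed least among the kinases, at 180.4, 177 and 197 CPM, 214, 205 and 202 CPM and 208, 198 and 192 CPM. Its stimulated libraries lay above the unstimulated ones by little, with a log2 fold change of 0.16 ± 0.07 (edgeR adjusted p = 0.0626) that was -0.06 with upper-quartile scaling and came past the threshold under 1 alternative, leaving out unstimulated library 3 (0.22, adjusted p = 0.033), and -0.06 ± 0.07 under the inhibitor (edgeR adjusted p = 0.552). Atr (chr9:95857597-95951781), the kinase of stalled forks, gave 78.1, 94 and 87.7 CPM, 172, 168 and 156 CPM and 147, 133 and 136 CPM. It rose by 0.93 ± 0.09 (edgeR adjusted p = 7.26e-06) and kept the largest share of its rise after Rad18. The small fall of 0.25 under the inhibitor (edgeR adjusted p = 0.0372) was lost in 9 of 20 alternative settings, with an adjusted p of 0.0666 under the replicate block on 9 libraries, 0.344 with upper-quartile scaling, and 0.0832 to 0.123 without stimulated library 1 or 2 or inhibitor library 2 or 3. Topbp1 (chr9:103305215-103350428), which activates ATR, averaged 115 ± 23, 382 ± 7.06 and 226 ± 21.3 CPM (SD, n = 3), with no overlap between groups, and was lower with the inhibitor by 0.76 (edgeR adjusted p = 0.00104).

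The fork protection genes rose in 3 of 3 cases and fell in 3 of 3. Clspn (chr4:126556935-126593903), the adaptor that lets ATR phosphorylate CHK1, stood at 6.96, 25.5 and 4.92 CPM unstimulated, 75.2, 94.8 and 89.9 CPM stimulated and 18.1, 18.3 and 31.5 CPM with the inhibitor. Its unstimulated library 2 lay above 2 inhibitor libraries, and its rise was 2.80 ± 0.54, or 3.87 without that library. With the inhibitor it fell by 1.93 ± 0.52 (edgeR adjusted p = 0.0122), about as far as Rad54l and Bard1. Timeless and Tipin, which form a complex that travels with the fork, rose by 2.15 ± 0.23 and 2.62 ± 0.24 and changed by -1.18 ± 0.23 and -1.27 ± 0.23 with the inhibitor. Timeless (chr10:128232065-128252941) gave 22.3, 37.5 and 20.8 CPM, 106, 126 and 125 CPM and 43.8, 48.2 and 66.2 CPM, and Tipin (chr9:64281581-64305424) averaged 14.5 ± 5.71, 89.2 ± 7.22 and 37 ± 4.51 CPM (SD, n = 3). Per kilobase of merged exon Tipin stood highest of the members with stimulation, at 47.7 CPM, followed by Msh6 at 35.4 and Topbp1 at 34. Rad51c stood lowest, at 1.59 CPM. These ranks depend on the merged length, which can exceed that of the main transcript.

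Msh6 and Rad18, which act outside recombination proper, both rose. Msh6 (chr17:87975062-87990892), the mismatch recognition subunit, stood at 62.6, 64.8 and 56.7 CPM unstimulated, 150.2, 159 and 153 CPM stimulated and 82.8, 76.7 and 96.8 CPM with the inhibitor. Its rise of 1.33 ± 0.10 was the smallest of the cycling-linked members (edgeR adjusted p = 1.46e-06), and library 2 did not stand out. Rad18 (chr6:112619850-112696686), the ubiquitin ligase that starts lesion bypass by modifying PCNA, read 15.3, 23.7 and 19 CPM, 75.8, 71.5 and 68.8 CPM and 55.7, 55.3 and 61 CPM. It rose by 1.90 ± 0.15 (edgeR adjusted p = 1.95e-06) and with the inhibitor changed by -0.33 ± 0.14 (edgeR adjusted p = 0.0832), not past the threshold, while the libraries of these 2 groups did not overlap. Against unstimulated cells the inhibitor group stood 1.57 ± 0.14 higher (edgeR adjusted p = 1.16e-05).

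**Figure D4:**
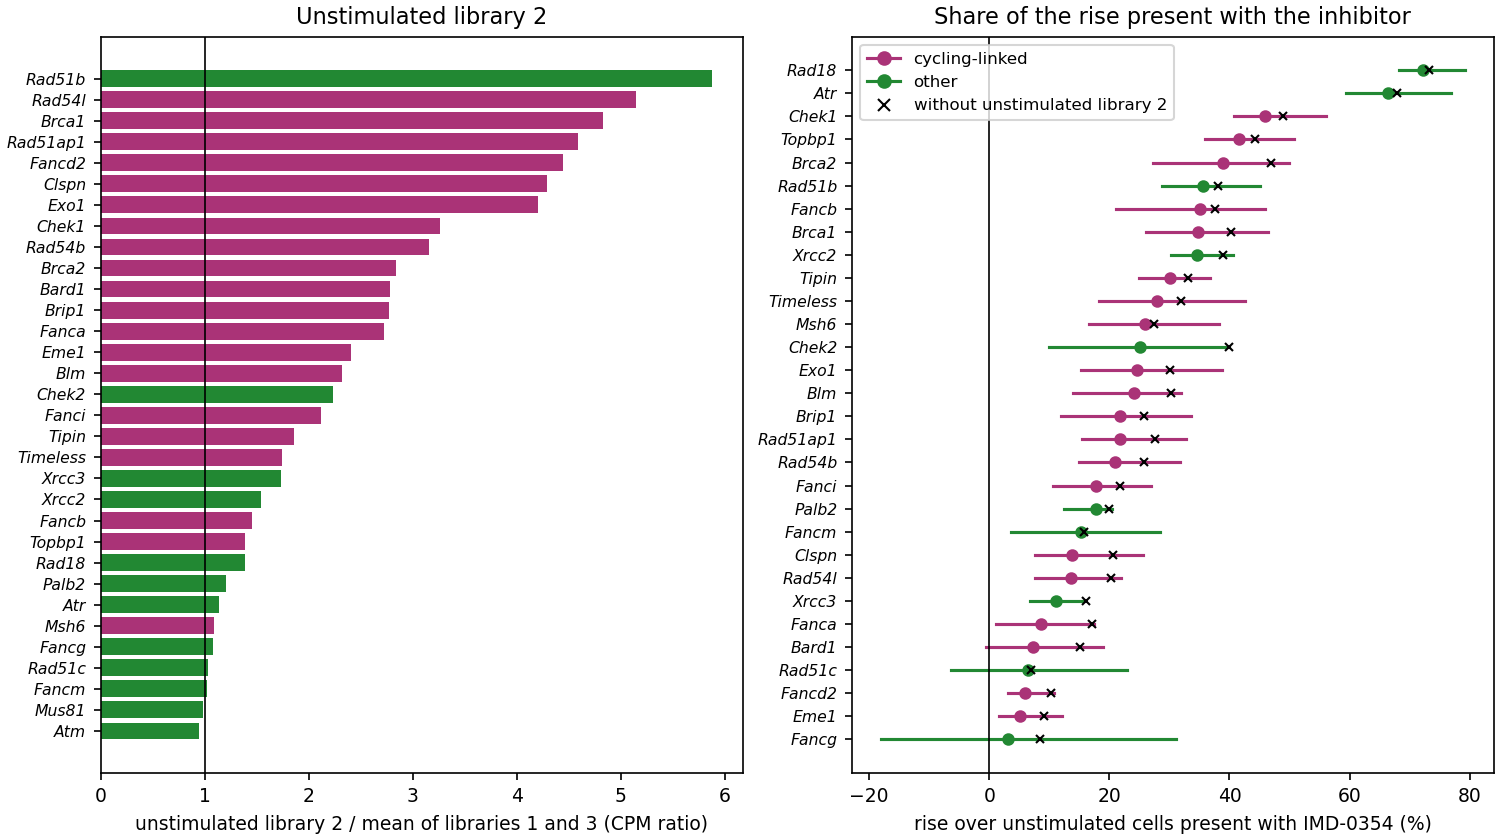
Left, CPM of each member in unstimulated library 2 over the mean of libraries 1 and 3, with a line at a ratio of 1. Right, share of the rise over unstimulated cells that was present with IMD-0354 (in percent) for the 30 risen members, as the value from group means (point), its range over the 3 inhibitor libraries (line) and the value without unstimulated library 2 (cross). Ratios run from 0.941 for Atm to 5.88 for Rad51b, and Rad18 and Atr stand apart at the upper end of the shares.

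The list of 58 other genes of the same pathways moved in both directions. With stimulation 42 rose and 2 fell (median 0.68), where 32% and 34% of all genes did. Among those with the largest rise were Recql4, a helicase of replication and repair, at 2.81 ± 0.37, from 5.55 ± 3.63 to 38.9 ± 4.81 CPM (SD, n = 3, edgeR adjusted p = 7.72e-05), and H2afx, the histone variant phosphorylated at breaks (2.78 ± 0.42). Without unstimulated library 2 these rises were 3.49 and 3.37. The 2 that fell were Eme2, a second partner of MUS81, from 25.5 ± 3.16 to 7.0 ± 0.465 CPM (-1.87 ± 0.14, edgeR adjusted p = 1.54e-06), and Wrn, a helicase (-0.55 ± 0.13), and the smallest called rise was that of Rad17, a loader of the checkpoint clamp (0.32 ± 0.09). With the inhibitor 26 fell and 7 rose (median -0.31), where 22.8% of all genes tested fell and 21.7% rose. The number that rose was 4 without inhibitor library 1 or 2 or without stimulated library 2 or 3. The largest falls were those of H2afx (-2.77 ± 0.42), Gen1, a Holliday junction nuclease (-1.92 ± 0.36), and Ube2t, the Fanconi conjugating enzyme (-1.91 ± 0.19). Eme2 rose by 1.38 ± 0.14, to 18.2 ± 2.05 CPM (edgeR adjusted p = 3.84e-05), opposite to Eme1, along with Fancc, a core subunit (0.83 ± 0.09), and Slx1b, a nuclease subunit (0.51 ± 0.13, adjusted p = 0.051 without inhibitor library 2). Against unstimulated cells 30 were higher with the inhibitor and 3 lower (median 0.37), where 26.3% and 26.1% of all genes tested were. Recql4 (1.62 ± 0.36, and 2.29 without unstimulated library 2) and Rmi2, a partner of BLM (1.35 ± 0.18), were among the furthest above, and Wrn (-0.60 ± 0.13), Eme2 (-0.49 ± 0.13) and Rpa1, the large subunit of the single-strand binding protein (-0.49 ± 0.11), were the 3 that were lower.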

How the data were processed

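The 9 libraries were made from total RNA with a stranded, ribosome-depleted kit, per the labels' protocols. The deposited table holds whole-number read counts per gene. Per the submitters' processing notes, STAR 2.7.1a, featureCounts and the mm10 build were used. Annotation release, strand setting and mate counting were not given in the sources used here. Between 70.6% and 78.5% of counts from 1 to 10 were even, a pattern that pairs counted as 2 reads give, and castaneus reads met a C57BL/6 reference. Gene IDs were named from GENCODE M21 for 49412 of 49671 genes.

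Counts were tested with edgeR 4.0.16 (R 4.3.3), with TMM scaling, filterByExpr, a quasi-likelihood fit of group over all 9 libraries with 6 residual degrees of freedom, and Benjamini-Hochberg adjustment over 18374 genes, all members among them. Tests were two-sided at 0.05. The approximate standard error is the log2 fold change over the square root of F. The 3 comparisons share libraries, so their values are not independent. The members and lists were chosen with earlier results of these data known. Named were the 3 members with the largest and smallest fold change in each comparison, and likewise the pathway genes called at 5 CPM or more, of which some are not reported here. Alternatives were upper-quartile and RLE scaling, library totals, DESeq2 1.42.0, limma 3.58.1 (voom), 2 filters, the 2 groups compared alone, counts divided by 2, a replicate block and leaving out each library. Deviations from the group mean correlated at 0.144, 0.134 and 0.112 between same-numbered stimulated and inhibitor libraries. Those of different number in these groups gave -0.106 to 0.00097. Because values were centred on the group mean, positive same-numbered values pull those of different number under 0 on average. Same-numbered unstimulated libraries gave -0.23 to 0.0014 with either group. Unstimulated library 3 and inhibitor library 2, of different number, reached 0.148, so such values do not establish pairing. The numbers were used as pairs in the replicate block only, and the main fit held group alone. Libraries of a group differed by far more than counting error (chi-square over its degrees of freedom at least 32.7), so none was taken as a copy of another. The fits were tested on simulated data in which few genes changed, in both directions, in the stimulated group only. No simulated library stood apart. The simulation therefore could not test the scaling under broad change or the spread that unstimulated library 2 brought.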

Additional observations from a re-analysis of the deposited data

How the results depend on the processing

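In stimulated against unstimulated cells all 20 cycling-linked members were called higher under each alternative that was run, except that only 19 of them were tested, and called, among genes of at least 10 CPM. Of the single-member values under alternatives 1703 stayed on their side of the threshold, 60 came past it, 65 lost it and 16 changed sign. The cause of the changes listed here was not tested. The median of the other members under stimulation was 1.17 with upper-quartile scaling and 1.18 with library totals in place of TMM (chosen after seeing the data). It was 0.75 over genes of at least 10 CPM, where fewer genes were tested. Rad51b, Rad51c and Xrcc3 were not among them, so that median covers fewer other members than the main one. Upper-quartile scaling moved the median of all genes from -0.05 to -0.27 under stimulation and from 0.03 to 0.16 under the inhibitor, and library totals moved them to -0.24 and 0.12. Upper-quartile scaling called 1 member higher with the inhibitor, Mus81 of the other members (1 of 12). At 10 CPM 8948 genes were tested. Of these, 3463 were higher and 3488 lower under stimulation, and 2947 and 2920 for inhibitor against unstimulated cells. Of the other members still tested, 4 were lower with the inhibitor (median -0.47), and the median against unstimulated cells was 0.23. Rad51c and Xrcc3, called lower in the main fit, were not tested at 10 CPM, and Atr was tested but lost its call. With only the 2 groups compared 8 cycling-linked members were higher in inhibitor than in unstimulated cells. Leaving out 1 library in turn, the members called higher in that comparison ran from 11 to 27 and the cycling-linked ones from 6 to 20, with medians of 0.66 to 1.30 for members, 0.79 to 1.69 for cycling-linked and 0.31 to 0.67 for other members. Under stimulation these medians ran from 1.99 to 2.6, 2.44 to 3.37 and 1.21 to 1.70. Members called lower with the inhibitor ran from 20 to 30, and all genes called lower from 3424 to 4419. The replicate block on 9 libraries kept 17 cycling-linked and 7 other members lower with the inhibitor, with Chek2 (adjusted p = 0.0441) in place of Atr, and changed no other member's call. Restricted to stimulated and inhibitor libraries (chosen after seeing the data), the block called 20 and 10, and so did the same 6 libraries without it. Sign changes were all in members not called: Atm under stimulation (-0.057 upper-quartile, -0.018 at 10 CPM, -0.024 library totals), under the inhibitor (0.078 upper-quartile, 0.034 library totals) and against unstimulated cells (-0.031 at 10 CPM); Fancg against unstimulated cells (-0.070 upper-quartile, -0.032 RLE, -0.031 DESeq2, -0.0026 without a filter, -0.12 at 10 CPM, -0.089 library totals, and -0.069 to 0.087 leaving out 1 library); Mus81 under stimulation (-0.19 to 0.049 leaving out 1 library); and Rad51c against unstimulated cells (-0.063 to 0.42 leaving out 1 library). Depth limits Rad51b most, with 9 counts in its lowest library.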
